A study of Mus musculus with 20 samples.

Results

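The 6 libraries described here are 3 mouse cell lines, each measured in a pair of states: as epiblast-like cells (EpiLC DKO 1 to 3) and as the pluripotent line from which those cells were made (PGC-ESC DKO 1 to 3). They were taken by their group label out of 20 libraries, and each EpiLC library was paired with the parent library of the same line number. All genes of the table entered the comparison: of 21361 listed, 15436 were tested and 5925 had too few reads. EpiLC DKO and PGC-ESC DKO carry a Puma Noxa DKO genotype, the double knockout of the BH3-only genes Bbc3 (Puma) and Pmaip1 (Noxa), a C57Bl6J strain label and reads of an EGFP reporter. The only other lines measured in both states are wildtype with the same strain label: EpiLC Host 3 and 4 and their parents ESC Host 3 and 4, derived from host embryos. The lines come from a study of embryonic stem cells (ESCs) and of ESC-like lines made from primordial germ cells (PGC-ESCs). The labels give one culture protocol for every library, the routine ESC one on gelatin in N2B27 with LIF, a GSK3 inhibitor and a MEK inhibitor, and the sources used here do not give the steps or length of the EpiLC induction. Each library is one culture of one line, so p-values measure the spread among these lines. In bulk RNA, fewer cells of a type and less RNA per cell cannot be told apart.

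Mouse ESCs held with LIF and inhibitors of GSK3 and MEK stay in a ground state called naive, which resembles the epiblast before implantation and rests on a circuit of factors that includes Esrrb, Klf4 and Tfcp2l1. When the inhibitors are withdrawn and FGF and Activin are supplied, the cells lose this circuit, turn on genes of the epiblast after implantation such as Fgf5, Otx2 and Dnmt3b, and become competent to form germ cells. EpiLCs are the usual culture model of that formative state.

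Both targeted genes had reads in the DKO libraries, Pmaip1 few. Bbc3 (chromosome 7, 16308393 to 16318205; coordinates throughout are from GENCODE M21 on the mm10 build) had 76.9, 82.8 and 47.4 CPM in EpiLC DKO 1, 2 and 3, against 29.5, 55.5 and 39.7 CPM in PGC-ESC DKO 1, 2 and 3, where CPM is the count scaled to the library total after TMM normalization. The EpiLC and parent ranges overlapped, since EpiLC DKO 3 lay below PGC-ESC DKO 2. Bbc3 was higher within each line, with log2 fold change 0.74 ± 0.22, adjusted p 0.0167 in the quasi-likelihood test of edgeR, adjusted by Benjamini-Hochberg over all tested genes, and the call was lost without line 1 (adjusted p 0.169). Pmaip1 (chromosome 18, 66458533 to 66465565) stayed near the bottom of the scale, with 4.52, 5.20 and 3.63 CPM in EpiLC DKO and 1.35, 4.91 and 3.44 CPM in PGC-ESC DKO, and its difference did not pass (log2 fold change 0.63 ± 0.29, adjusted p 0.094); without line 2 it passed (adjusted p 0.0364). In the wildtype lines Bbc3 had 86.8 and 76.2 CPM in EpiLC Host 3 and 4 and 39.7 and 56.7 CPM in ESC Host 3 and 4, so the levels of DKO and Host libraries overlapped in both states. Pmaip1, in contrast, was far higher in the EpiLC Host libraries than in EpiLC DKO, with the values given below. The sources used here do not give the deleted part of Bbc3, so its reads check nothing about the genotype. EGFP averaged 634 ± 105 CPM in EpiLC DKO and 9681 ± 1128 CPM in PGC-ESC DKO (mean ± SD, n = 3 each; log2 fold change -3.94 ± 0.37, adjusted p 1.56e-05). The reporter fell by about the same amount in each line, and its driving promoter is not given in the labels.

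Library totals ran from 14255399 to 33376660 counts. The first principal component of the 6 libraries held 84.9% of the variance and separated the states, and the second held 5.97%. EpiLC DKO 3 and PGC-ESC DKO 3 had Y-linked reads, with summed levels of 186 and 198 CPM, and the other 4 libraries had none, so both libraries of line 3 carry the same mark. The ribosomal RNA precursor Rn45s took 1.71 to 2.39% of counts in EpiLC DKO and 2.44 to 4.52% in PGC-ESC DKO. Expressed genes (at or over 1 CPM) numbered 13084, 13123 and 12938 in EpiLC DKO and 12138, 12439 and 12420 in PGC-ESC DKO.

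The label held against its defining markers. The summed level of 6 naive markers (Klf4, Esrrb, Tfcp2l1, Zfp42, Nr0b1 and Tbx3) was 79.4 to 131 CPM in EpiLC DKO and 2579 to 3034 CPM in PGC-ESC DKO. The summed level of 5 formative markers (Fgf5, Otx2, Pou3f1, Dnmt3b and Sox3) was 1364 to 2214 CPM in EpiLC DKO and 119.6 to 211 CPM in PGC-ESC DKO. Dnmt3b made most of this sum in every library, and each of the 5 was called higher in EpiLC DKO. Neither sum overlapped between the states, and every EpiLC library moved far from its own parent.

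The promoters of 4 genes are shown for the sequence context of the transition: Fgf5 and Car4, which were nearly or wholly silent in the parents, and Klf4 and Zfp42, naive markers with a deep and a moderate fall. They were chosen with their values and motif matches known and do not represent the called genes. Each runs from 250 bases before to 50 bases after the RefSeq start on GRCm38.p6 (the mm10 assembly), 5′ to 3′ on the gene's strand, and capitals mark matches on either strand to the motifs searched.
Fgf5 (chr5:98253934-98254233, plus strand): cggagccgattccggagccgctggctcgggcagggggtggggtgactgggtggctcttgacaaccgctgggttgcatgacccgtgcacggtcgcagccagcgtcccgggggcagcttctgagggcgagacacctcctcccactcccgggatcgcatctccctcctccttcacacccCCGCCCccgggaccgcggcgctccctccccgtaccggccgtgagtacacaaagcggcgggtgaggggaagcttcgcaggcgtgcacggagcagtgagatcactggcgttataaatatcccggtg
Car4 (chr11:84957504-84957803, plus strand): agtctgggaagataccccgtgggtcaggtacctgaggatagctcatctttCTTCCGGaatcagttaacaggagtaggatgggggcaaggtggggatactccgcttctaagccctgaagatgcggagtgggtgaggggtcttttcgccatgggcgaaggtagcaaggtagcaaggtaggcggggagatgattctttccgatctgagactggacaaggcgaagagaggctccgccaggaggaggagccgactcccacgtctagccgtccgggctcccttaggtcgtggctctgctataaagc
Klf4 (chr4:55532426-55532725, minus strand): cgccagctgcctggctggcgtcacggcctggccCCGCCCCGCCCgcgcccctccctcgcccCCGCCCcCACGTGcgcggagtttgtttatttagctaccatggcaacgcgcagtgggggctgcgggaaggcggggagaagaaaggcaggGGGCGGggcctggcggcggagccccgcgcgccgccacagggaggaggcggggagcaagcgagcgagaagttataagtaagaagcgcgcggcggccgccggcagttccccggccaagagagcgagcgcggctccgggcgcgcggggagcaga
Zfp42 (chr8:43306960-43307259, minus strand): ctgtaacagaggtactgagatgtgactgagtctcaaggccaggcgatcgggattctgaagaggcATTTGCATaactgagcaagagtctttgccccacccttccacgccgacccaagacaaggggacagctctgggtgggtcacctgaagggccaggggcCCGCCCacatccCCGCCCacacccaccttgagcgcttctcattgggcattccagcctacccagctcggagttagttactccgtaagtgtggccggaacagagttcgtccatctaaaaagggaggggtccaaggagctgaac
The capitals in Fgf5 are 1 GC box (GGGCGG, bound by SP and KLF factors) on the opposite strand, and those in Car4 are 1 ETS match (CCGGAAG) on the opposite strand. Klf4 holds 4 GC boxes, of which the first 2 overlap by 1 base, and 1 E-box (CACGTG). Zfp42 holds an octamer match, ATGCAAAT on the opposite strand, the sequence bound by POU factors such as Pou5f1, and 2 GC boxes.

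Across all listed promoters of the same length (n = 32851), the GC box was present in 35.7%, the ETS letters in 8.86%, the E-box in 7.15% and the octamer in 1.74%. Among promoters of tested genes (n = 15270) the GC box was in 60.6%, the ETS letters in 15.6%, the E-box in 9.74% and the octamer in 1.41%. The ETS letters stood in 8.65% of the promoters of genes that rose and in 16.6% of those of genes that fell, and the octamer in 1.60% and 1.36%. The GC box was in 62.5% of the promoters of genes that rose and 57.6% of those that fell. The letters AAGGTCA (a site of ESRRB), GGATTA (OTX2) and TTCNNNGAA (STAT factors) were searched on both strands as well and occurred in 3.10, 5.03 and 5.67% of promoters of genes that rose, against 3.73, 5.63 and 7.31% of those that fell. These matches describe letters in a window and are not tested binding sites.

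Conversion changed a large part of the measured transcriptome. Of the tested genes, 52.4% were called at an adjusted p under 0.05, with 4254 higher (27.6%) and 3838 lower (24.9%) in EpiLC DKO than in PGC-ESC DKO. All 3 lines shared the direction for 8067 of the 8092 called genes. Large rises outnumbered large falls: 3077 genes rose and 1943 fell by more than 2-fold, and 1005 rose and 473 fell by more than 8-fold. The median log2 fold change over all tested genes was 0.02, and the count of called genes was 5817, 6170 and 7191 without line 1, 2 and 3. The plot of fold change against level shows the wide tails, with single genes named at both ends.

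**Figure D1:**
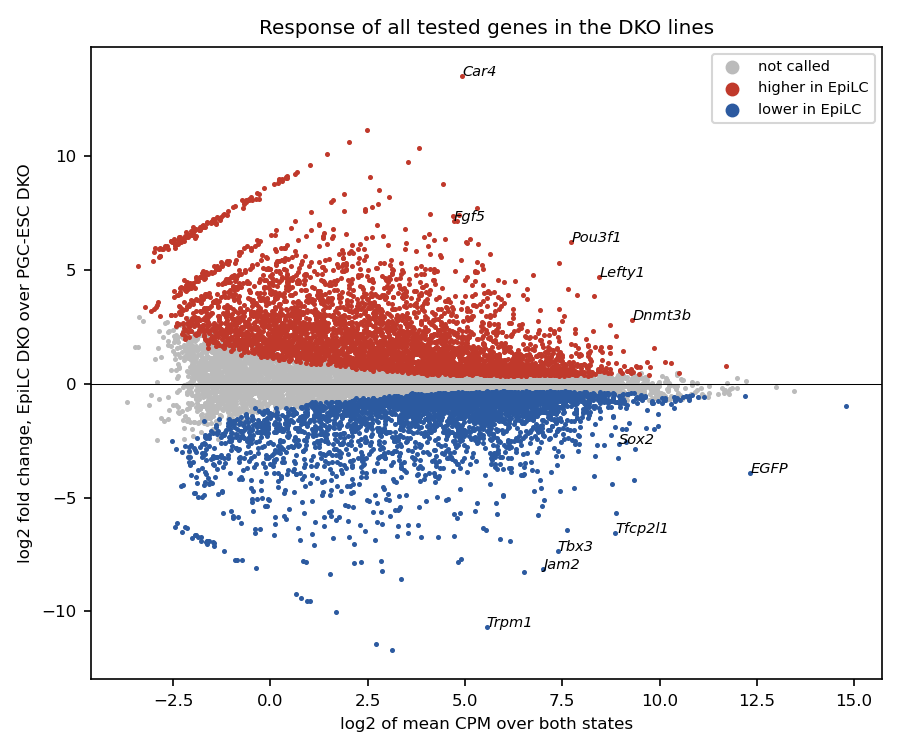
Each point is 1 of the tested genes, with the log2 of its mean CPM over both states on the x axis and the log2 fold change of EpiLC DKO over PGC-ESC DKO on the y axis. Genes called at an adjusted p under 0.05 are red where higher and blue where lower in EpiLC DKO; Car4 lies at the top and Trpm1 among the lowest, and the diagonal rows at low levels are genes with no or very few reads in one state.

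Most of the naive circuit fell, to different depths. Of 22 naive pluripotency genes, all tested, 21 fell and none rose, with a median log2 fold change of -4.14, against 24.9% of all tested genes lower and a median of 0.02. Tfcp2l1 (chromosome 1, 118627945 to 118685168), a factor that sustains self-renewal downstream of LIF, had 6.70, 10.7 and 12.3 CPM in EpiLC DKO 1, 2 and 3, against 910.1, 861 and 981 CPM in PGC-ESC DKO 1, 2 and 3 (log2 fold change -6.58 ± 0.22, adjusted p 8.78e-08). All 3 EpiLC values lay more than an order of magnitude below all 3 parents. Klf4 (chromosome 4, 55527143 to 55532466), a reprogramming factor, had 2.29, 3.49 and 10.2 CPM in EpiLC DKO and 370.2, 327 and 472 CPM in PGC-ESC DKO (log2 fold change -6.44 ± 0.35, adjusted p 6.60e-07). EpiLC DKO 3 kept the most Klf4 of the EpiLC libraries, and its parent was also the highest of the parents. Tbx3, a T-box factor of the same circuit, had 1.26, 1.57 and 3.92 CPM in EpiLC DKO against 298, 326 and 367 CPM in PGC-ESC DKO (log2 fold change -7.36 ± 0.28, adjusted p 1.61e-07), again with the residue highest in line 3.

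The deepest falls of the group were in Jam2, a junctional adhesion molecule, and Prdm14, a repressor that guards the naive state and germ cell fate. Jam2 (chromosome 16, 84774123 to 84825928) had 0.670, 1.06 and 1.05 CPM in EpiLC DKO and 266, 246 and 257 CPM in PGC-ESC DKO (log2 fold change -8.14 ± 0.24, adjusted p 5.55e-08). Prdm14 had 0.140, 0.205 and 0.468 CPM in EpiLC DKO and 58.2, 52.0 and 58.7 CPM in PGC-ESC DKO (log2 fold change -7.85 ± 0.28, adjusted p 1.32e-07). Both were close to silent in every EpiLC library, with no overlap between states. Other genes of the circuit kept more of their level. Esrrb, an orphan nuclear receptor, had 31.1, 45.4 and 43.6 CPM in EpiLC DKO against 885, 775 and 874 CPM in PGC-ESC DKO (log2 fold change -4.42 ± 0.20, adjusted p 3.21e-07). Zfp42, the widely used marker Rex1, had 27.7, 29.4 and 28.8 CPM in EpiLC DKO against 164, 146 and 141 CPM in PGC-ESC DKO (log2 fold change -2.39 ± 0.13, adjusted p 8.50e-07), so its 3 EpiLC values were close together and none reached zero. Nr0b1, a partner of Pou5f1, had 10.4, 9.79 and 32.5 CPM in EpiLC DKO against 161, 143 and 199 CPM in PGC-ESC DKO (log2 fold change -3.48 ± 0.25, adjusted p 3.48e-06), with line 3 again highest. As a share of its own parent, the median naive gene stood at 4.20, 6.35 and 5.70% in lines 1, 2 and 3, and 14, 13 and 14 of the 22 genes were under 10%. Among the 22, 13 had their highest EpiLC value in line 3. Gbx2, the single member not called, had a log2 fold change of 0.34 (adjusted p 0.155).

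The core factors parted ways. Of 11 core pluripotency genes, 4 rose and 4 fell, with a median log2 fold change of 0.13. Over all tested genes 27.6% were higher and 24.9% lower. Sox2 (chromosome 3, 34650405 to 34652461), the partner of Pou5f1, had 111, 129 and 175 CPM in EpiLC DKO and 888, 839 and 839 CPM in PGC-ESC DKO (log2 fold change -2.65 ± 0.18, adjusted p 2.47e-06). Nanog, the homeodomain factor of both naive and core lists, had 114, 143 and 43.8 CPM in EpiLC DKO and 824, 929 and 900.3 CPM in PGC-ESC DKO (log2 fold change -3.28 ± 0.30, adjusted p 1.50e-05), and EpiLC DKO 3 was the lowest for it, the reverse of its place for Klf4. Pou5f1, or Oct4, fell less, with 724, 766 and 1021 CPM in EpiLC DKO and 1471, 2339.9 and 1570.4 CPM in PGC-ESC DKO (log2 fold change -1.08 ± 0.21, adjusted p 0.00172). None of these overlapped between states, yet all 3 genes stayed well expressed. Lin28a (chromosome 4, 134003330 to 134018841), which blocks maturation of let-7 microRNAs, rose, with 759, 675 and 746 CPM in EpiLC DKO and 162, 86.2 and 132 CPM in PGC-ESC DKO (log2 fold change 2.56 ± 0.21, adjusted p 6.25e-06). Utf1, a chromatin factor of pluripotent cells, had 479.6, 479.9 and 594 CPM in EpiLC DKO and 112, 90.2 and 110.2 CPM in PGC-ESC DKO (log2 fold change 2.31 ± 0.19, adjusted p 7.65e-06). Tdgf1, the Nodal co-receptor Cripto, rose more modestly (log2 fold change 0.76 ± 0.14, adjusted p 0.00145).

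**Figure D2:**
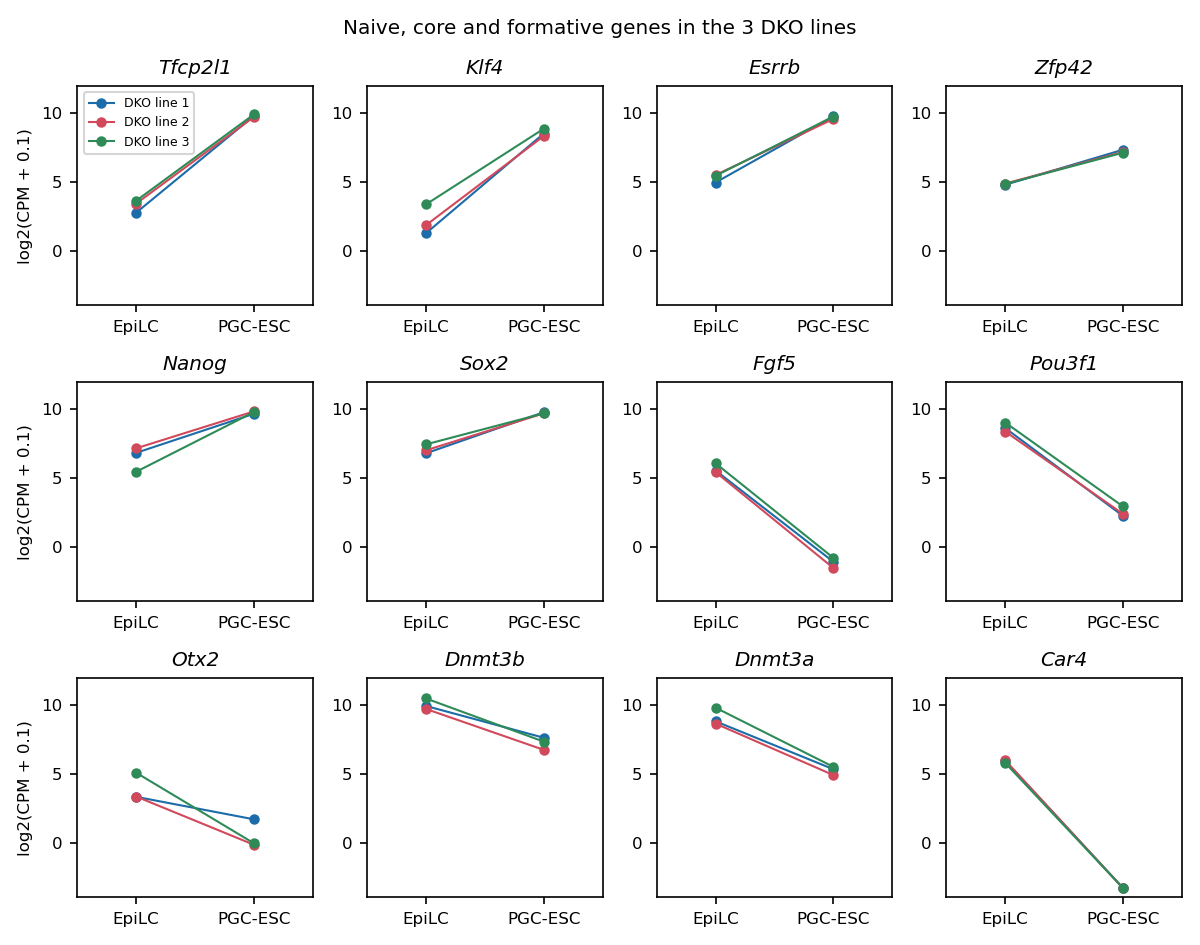
Levels of 12 genes as log2(CPM + 0.1) in EpiLC (left) and PGC-ESC (right) libraries of the 3 DKO lines, with a line joining the libraries of each cell line. Naive genes slope down towards EpiLC in every line, formative genes slope up, Sox2 and Nanog fall while staying expressed, and Otx2 is highest in EpiLC DKO 3.

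The formative programme rose together. Of 18 formative epiblast genes, 16 rose and 1 fell (median log2 fold change 3.21), against 27.6% higher and 24.9% lower over all tested genes. Fgf5 (chromosome 5, 98254184 to 98277030), the growth factor that marks the epiblast after implantation, had 46.6, 43.1 and 67.2 CPM in EpiLC DKO and 0.363, 0.238 and 0.463 CPM in PGC-ESC DKO (log2 fold change 7.14 ± 0.24, adjusted p 8.78e-08). Pou3f1 (chromosome 4, 124656807 to 124660655), or Oct6, a POU factor of the epiblast and nervous system, had 399, 335 and 528 CPM in EpiLC DKO and 4.58, 5.07 and 7.48 CPM in PGC-ESC DKO (log2 fold change 6.22 ± 0.17, adjusted p 4.12e-08). For both genes the 3 EpiLC values were alike and far above every parent.

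Otx2 (chromosome 14, 48657677 to 48673819), the homeodomain factor that reshapes enhancers in formative cells, varied far more. It had 9.99, 10.1 and 34.0 CPM in EpiLC DKO 1, 2 and 3, against 3.13, 0.792 and 0.860 CPM in PGC-ESC DKO 1, 2 and 3 (log2 fold change 3.32 ± 0.56, adjusted p 8.18e-04). The states did not overlap, EpiLC DKO 3 stood apart above the other 2 EpiLC libraries, and the parent of line 1 stood above the other parents. Per line, the log2 difference of Otx2 was 1.65, 3.55 and 5.18. Sox4 and Sox11, SoxC factors of progenitor cells, rose (log2 fold change 3.92 ± 0.18, adjusted p 3.52e-07 and log2 fold change 2.10 ± 0.15, adjusted p 3.48e-06), as did Sox3 (log2 fold change 4.48 ± 0.30, adjusted p 2.17e-06). Wnt8a, a WNT ligand of the gastrulating embryo, had 38.1, 38.5 and 30.7 CPM in EpiLC DKO and 0.989, 0.792 and 1.79 CPM in PGC-ESC DKO (log2 fold change 4.93 ± 0.30, adjusted p 1.14e-06). Foxd3, a forkhead factor counted with the formative genes, was the one that fell: it had 17.0, 11.7 and 40.2 CPM in EpiLC DKO and 52.0, 48.4 and 58.9 CPM in PGC-ESC DKO (log2 fold change -1.40 ± 0.31, adjusted p 0.00371), with EpiLC DKO 3 closest to the parents.

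Genes that respond to FGF through ERK rose as a group, 15 of 18 with none lower (median log2 fold change 1.62). Without the line block and with DESeq2, 1 was lower. The shares over all tested genes were 27.6% higher and 24.9% lower. The labels list a MEK inhibitor, which blocks this pathway, for every library, and its part in these rises was not tested. Dusp6 (chromosome 10, 99263231 to 99267489), an ERK phosphatase induced by ERK itself, had 235, 197 and 192 CPM in EpiLC DKO and 8.94, 4.52 and 10.1 CPM in PGC-ESC DKO (log2 fold change 4.76 ± 0.22, adjusted p 3.57e-07). Dusp4, a related phosphatase, and Spry4, a feedback inhibitor of receptor tyrosine kinases, rose by similar amounts (log2 fold change 4.39 and 4.14). Spred1, another inhibitor of the pathway, had 143, 129.7 and 156 CPM in EpiLC DKO and 24.8, 16.2 and 34.6 CPM in PGC-ESC DKO (log2 fold change 2.56 ± 0.21, adjusted p 6.66e-06). Etv4, an ETS factor downstream of FGF, rose less (log2 fold change 1.80 ± 0.21, adjusted p 6.75e-05), while Myc had 89.7, 73.7 and 84.2 CPM in EpiLC DKO and 9.33, 7.21 and 17.1 CPM in PGC-ESC DKO (log2 fold change 2.96 ± 0.22, adjusted p 3.80e-06). The immediate early gene Egr1 was erratic. It had 33.4, 32.9 and 216 CPM in EpiLC DKO 1, 2 and 3, against 15.7, 0.475 and 3.24 CPM in PGC-ESC DKO 1, 2 and 3, so line 3 alone exceeded all the rest by several fold, and the call (log2 fold change 3.97 ± 1.16, adjusted p 0.0159) was lost without line 3 (adjusted p 0.116).

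Among 12 tested FGF ligands and receptors, 6 rose and 4 fell (median log2 fold change 0.85), against 27.6% higher and 24.9% lower over all tested genes. The ligands changed over: Fgf15, known best as an intestinal hormone and embryonic signal, had 13.3, 11.3 and 11.8 CPM in EpiLC DKO and 0.165, 0.158 and 0.0662 CPM in PGC-ESC DKO (log2 fold change 6.47 ± 0.35, adjusted p 7.25e-07). Fgf8, a ligand of gastrulation, had 7.39, 7.33 and 1.46 CPM in EpiLC DKO and 0.132, 0.317 and 0.331 CPM in PGC-ESC DKO (log2 fold change 4.40 ± 0.58, adjusted p 1.65e-04), lowest among the EpiLC libraries in line 3. Fgf4, the ligand of naive ESCs, had 94.3, 92.9 and 109 CPM in EpiLC DKO and 312, 276 and 300.4 CPM in PGC-ESC DKO (log2 fold change -1.59 ± 0.14, adjusted p 1.29e-05). Fgf4 thus fell and remained well expressed, whereas Fgf10 was close to silent in the EpiLC libraries. Fgf10, a ligand of limb and lung growth, had 0.0558, 0.171 and 0.117 CPM in EpiLC DKO and 7.55, 6.42 and 6.02 CPM in PGC-ESC DKO (log2 fold change -5.87 ± 0.43, adjusted p 3.29e-06). Fgfr2, a receptor used by extraembryonic lineages, rose (log2 fold change 1.80 ± 0.26, adjusted p 2.80e-04), and Fgfr1, the main receptor of the epiblast, had a log2 fold change of 0.24 (adjusted p 0.22).

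LIF signalling genes moved in both directions. Of 12 LIF and STAT3 genes, 5 fell and 2 rose (median log2 fold change -0.37), against 24.9% lower and 27.6% higher over all tested genes. The rises were Pim1, a kinase induced by STAT3 (log2 fold change 1.34, adjusted p 4.04e-04), and Ptpn11, the phosphatase SHP2 (log2 fold change 0.72, adjusted p 0.00841), of which 1 stayed called without line 2. Jak1, Jak2, Socs2, Pim3 and Junb did not pass. The 5 that fell include receptors, the transcription factor and targets. The receptor Lifr had 5.36, 6.68 and 10.9 CPM in EpiLC DKO and 43.8, 44.5 and 49.9 CPM in PGC-ESC DKO (log2 fold change -2.65 ± 0.19, adjusted p 2.85e-06). Il6st, the shared co-receptor gp130, fell by 1.97 and the transcription factor Stat3 by 2.79 on the log2 scale. The target Socs3, a feedback inhibitor, had 14.5, 9.59 and 11.2 CPM in EpiLC DKO and 91.3, 104 and 106 CPM in PGC-ESC DKO (log2 fold change -3.10 ± 0.19, adjusted p 1.17e-06). Bcl3, an IκB-family target of LIF, had 2.43, 1.95 and 1.58 CPM in EpiLC DKO and 69.0, 94.4 and 66.3 CPM in PGC-ESC DKO (log2 fold change -5.25 ± 0.27, adjusted p 5.27e-07), the deepest fall of the list. Osm, an interleukin-6 family ligand related to LIF and not on that list, was nearly gone in EpiLC DKO, with 0.0558, 0.0342 and 0.0585 CPM against 19.8, 23.8 and 17.4 CPM in PGC-ESC DKO (log2 fold change -8.58 ± 0.35, adjusted p 4.21e-07).

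Targets of β-catenin did not move as one. Of 15 WNT target genes, 4 rose and 6 fell, against 27.6% higher and 24.9% lower over all tested genes. The median of 0.15 changed sign without line 1 (-0.19). The labels list a GSK3 inhibitor, which stabilises β-catenin, for every library, and its part in the changes of these targets was not tested. Notum (chromosome 11, 120653788 to 120661175), a secreted feedback inhibitor of WNT ligands, had 0.977, 0.959 and 1.70 CPM in EpiLC DKO and 136, 129 and 163 CPM in PGC-ESC DKO (log2 fold change -6.92 ± 0.19, adjusted p 4.12e-08). Sp5, a zinc finger repressor induced by WNT, had 1.34, 0.993 and 0.526 CPM in EpiLC DKO and 58.8, 92.8 and 109 CPM in PGC-ESC DKO (log2 fold change -6.35 ± 0.33, adjusted p 5.96e-07). Axin2, the scaffold of the destruction complex and a general readout of the pathway, fell less (log2 fold change -2.70 ± 0.22, adjusted p 6.79e-06). All 3 were lower in every line. Znrf3 and Rnf43, also on the list, did not pass (log2 fold change 0.15 and -0.21, adjusted p 0.41 and 0.738). Lgr5 rose at a low level, from 0 counts in all in PGC-ESC DKO to 38 in EpiLC DKO. Cdx1, a caudal-type homeobox factor, had 1.53, 1.47 and 0.702 CPM in EpiLC DKO 1, 2 and 3, against 31.2, 73.6 and 122 CPM in PGC-ESC DKO 1, 2 and 3. It was low in all EpiLC libraries while its parents differed widely among themselves, which gave it one of the widest ranges of per-line differences (-4.27, -5.57 and -7.28). Nkd1, an inhibitor of the pathway, went the other way (log2 fold change 2.61 ± 0.32, adjusted p 1.04e-04). Among WNT ligands and Frizzled receptors 14 of 24 rose and 4 fell. Fzd2 rose (log2 fold change 2.99 ± 0.17, adjusted p 9.42e-07), Fzd3 rose (log2 fold change 2.98 ± 0.30, adjusted p 2.54e-05) and Fzd5 fell (log2 fold change -2.15 ± 0.20, adjusted p 1.85e-05); without line 2, and again without line 3, 2 members of this family fell rather than 4.

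Nodal signalling genes rose in part, 7 of 14 tested with 1 lower (median log2 fold change 0.54). Lefty1 (chromosome 1, 180935022 to 180938400), a secreted Nodal inhibitor that Nodal induces, had 812, 879 and 332 CPM in EpiLC DKO and 42.4, 22.3 and 14.5 CPM in PGC-ESC DKO (log2 fold change 4.69 ± 0.38, adjusted p 6.33e-06). Line 3 was the lowest EpiLC library for Lefty1, and still above every parent. Lefty2, which neighbours Lefty1 on the chromosome, did not pass, with 141, 137 and 67.9 CPM in EpiLC DKO and 127, 97.5 and 56.2 CPM in PGC-ESC DKO (log2 fold change 0.31 ± 0.23, adjusted p 0.29), and its ranges overlapped. Skil, a SMAD co-repressor, rose by 2.77 and the receptor Acvr2b by 1.47 on the log2 scale, and Gdf3, a ligand of the family, fell by 0.74. Of 13 BMP genes, 3 rose and 2 fell, no more than the shares of all tested genes (27.6% higher and 24.9% lower). Id1 and Id2 did not pass (log2 fold change 0.76 and 0.32, adjusted p 0.135 and 0.40). The falls were Id4 (log2 fold change -3.54 ± 0.22, adjusted p 1.21e-06) and Id3 (log2 fold change -1.78 ± 0.19, adjusted p 3.94e-05), inhibitors of DNA binding that BMP induces, and the receptor Bmpr2 was among those that rose (log2 fold change 1.61 ± 0.18, adjusted p 5.07e-05).

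Germ cell genes moved in both directions, mostly down on the early list and up on the late one. The shares over all tested genes were 24.9% lower and 27.6% higher. Of 11 early germ cell genes 9 fell and 1 rose (median log2 fold change -2.63; none rose without line 1 or line 2), though Prdm14, Dppa3 and Sall4 also count as pluripotency genes. Tfap2c, an AP-2 factor of germ cell specification, had 17.2, 24.9 and 12.5 CPM in EpiLC DKO and 165, 141 and 119 CPM in PGC-ESC DKO (log2 fold change -3.002 ± 0.19, adjusted p 1.50e-06). Kit, the receptor that migrating germ cells need, had 20.04, 18.6 and 18.0 CPM in EpiLC DKO and 179, 135 and 165 CPM in PGC-ESC DKO (log2 fold change -3.08 ± 0.16, adjusted p 6.23e-07), and Alpl, the alkaline phosphatase used to stain germ cells and ESCs, fell by 2.63 on the log2 scale. Prdm1, or Blimp1, did not pass (log2 fold change -0.53 ± 0.27, adjusted p 0.129). All 3 that fell did so without overlap between states.

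Of 20 late germ cell genes, 13 rose and 4 fell (median log2 fold change 1.83), against 27.6% higher and 24.9% lower over all tested genes. Tdrd1 (chromosome 19, 56826209 to 56870012), a Tudor protein of the piRNA pathway, had 9.54, 8.87 and 9.89 CPM in EpiLC DKO and 0.0330, 0.238 and 0.463 CPM in PGC-ESC DKO (log2 fold change 5.54 ± 0.52, adjusted p 1.74e-05). Mael, another piRNA factor, had 22.5, 23.3 and 23.6 CPM in EpiLC DKO and 2.61, 2.85 and 2.65 CPM in PGC-ESC DKO (log2 fold change 3.10 ± 0.18, adjusted p 1.01e-06). Mael was uniform across lines in both states, and Tdrd1 in the EpiLC libraries, while the low Tdrd1 values of the parents were unequal. Sycp1, a synaptonemal complex protein of meiosis, rose (log2 fold change 2.93 ± 0.26, adjusted p 1.13e-05), as did Dmrt1 (log2 fold change 2.30 ± 0.17, adjusted p 3.39e-06), a factor of male germ cells, and Ddx4 (log2 fold change 1.82 ± 0.22, adjusted p 1.00e-04), the RNA helicase Vasa. Tdrd12, also of the piRNA pathway, fell (log2 fold change -1.93 ± 0.19, adjusted p 2.03e-05), and so did Hormad1, a meiotic chromosome axis protein (log2 fold change -1.88 ± 0.17, adjusted p 1.21e-05). Genes of one pathway therefore moved in both directions. Tex14 and Dazl, also on the late list, fell as well (log2 fold change -1.74 and -1.21, adjusted p 2.47e-04 and 0.0034). The late list summed to 259, 291 and 275 CPM in EpiLC DKO 1, 2 and 3. In PGC-ESC DKO 1, 2 and 3 the sums were 252, 256 and 259 CPM.

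De novo DNA methyltransferase genes rose, and TET genes moved in both directions. The DNA methylation list had 4 of 13 genes higher and 5 lower, and 3 were lower without line 1. Over all tested genes 27.6% were higher and 24.9% lower. Dnmt3a (chromosome 12, 3806007 to 3914443), a de novo methyltransferase, had 459, 408 and 914 CPM in EpiLC DKO and 40.6, 30.2 and 45.8 CPM in PGC-ESC DKO (log2 fold change 3.86 ± 0.23, adjusted p 1.17e-06). Dnmt3b (chromosome 2, 153649450 to 153687730), its partner enzyme, had 998, 858 and 1457 CPM in EpiLC DKO and 199.97, 108 and 164 CPM in PGC-ESC DKO (log2 fold change 2.82 ± 0.29, adjusted p 3.35e-05). Line 3 had the most of both enzymes among the EpiLC libraries. Tet2, a dioxygenase that oxidises methylcytosine, fell (log2 fold change -2.70 ± 0.18, adjusted p 2.05e-06), and the related Tet3 rose (log2 fold change 2.11 ± 0.24, adjusted p 6.56e-05). Zfp57, the zinc finger protein that protects imprints, had 54.7, 54.4 and 84.7 CPM in EpiLC DKO and 534, 627 and 574 CPM in PGC-ESC DKO (log2 fold change -3.19 ± 0.20, adjusted p 1.57e-06), and Uhrf1, which recruits the maintenance enzyme, fell modestly (log2 fold change -0.81 ± 0.17, adjusted p 0.0026). In 9 of the 13 genes EpiLC DKO 3 held the highest EpiLC value; over all tested genes it did so for 37.6%.

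Imprinted genes rose from both parental sides. Of 15 paternally expressed genes 10 rose and 3 fell (median log2 fold change 1.85), and of 14 maternally expressed genes 9 rose and 3 fell (median 1.48). The shares over all tested genes were 27.6% higher and 24.9% lower. Without line 1 the maternal falls numbered 1, and without the line block 5 maternal genes rose and 1 fell. Dlk1, a Notch-related growth regulator, had 26.1, 23.1 and 11.5 CPM in EpiLC DKO and 0.759, 0.238 and 0.794 CPM in PGC-ESC DKO (log2 fold change 4.996 ± 0.41, adjusted p 7.44e-06). Peg10, a gene derived from a retrotransposon and needed in placenta, had 326, 400.0 and 209 CPM in EpiLC DKO and 26.2, 31.5 and 35.3 CPM in PGC-ESC DKO (log2 fold change 3.30 ± 0.28, adjusted p 8.86e-06). The 2 genes shared their direction in every line, though line 3 had the lowest EpiLC level of each. H19 (chromosome 7, 142575529 to 142578143), the noncoding RNA expressed from the maternal allele, had 64.9, 142 and 85.5 CPM in EpiLC DKO and 4.45, 13.7 and 16.9 CPM in PGC-ESC DKO (log2 fold change 3.18 ± 0.34, adjusted p 3.71e-05). Its paternally expressed neighbour Igf2, a growth factor, had 7.28, 6.92 and 9.01 CPM in EpiLC DKO and 0.726, 2.22 and 3.37 CPM in PGC-ESC DKO (log2 fold change 2.09 ± 0.36, adjusted p 8.96e-04). Both members of this pair rose. Phlda2, Cdkn1c and Grb10, growth restrainers expressed from the maternal allele, rose by 3.20, 2.63 and 2.30 on the log2 scale. Plagl1, a zinc finger gene expressed from the paternal allele, had 11.2, 8.49 and 7.90 CPM in EpiLC DKO and 99.8, 76.5 and 156 CPM in PGC-ESC DKO and fell (log2 fold change -3.52 ± 0.24, adjusted p 2.33e-06). These counts do not separate the alleles.

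The two-cell-like genes, which mark a rare ESC state that resembles the embryo at genome activation, rose in 7 of 13 cases with none lower (median log2 fold change 1.11). The shares over all tested genes were 27.6% higher and 24.9% lower. Zscan4d had 35.1, 51.2 and 30.0 CPM in EpiLC DKO and 5.38, 10.5 and 16.9 CPM in PGC-ESC DKO (log2 fold change 1.94 ± 0.39, adjusted p 0.00229), and Dux, their activator, had 1.59, 2.98 and 1.58 CPM in EpiLC DKO and 0.363, 0.475 and 0.397 CPM in PGC-ESC DKO (log2 fold change 2.24 ± 0.44, adjusted p 0.00184). The gap was narrowest in line 3, whose parent was the highest of the parents for Zscan4d. EpiLC DKO 2 was the highest EpiLC library for 12 of the 13 genes. The Zscan4 genes are near-identical copies, and the sources used here do not say how reads were split among them, so each single value is uncertain.

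Defining markers of other cell types, a few taken from each longer list, were mostly low in both states. The summed level of 5 primitive endoderm markers (Gata4, Gata6, Sox17, Sox7 and Dab2) was 10.9 to 18.4 CPM in EpiLC DKO and 5.07 to 7.87 CPM in PGC-ESC DKO, with 2 or 3 of them under 1 CPM in each library. Dab2, an endocytic adaptor, made most of it in EpiLC DKO (log2 fold change 3.73 ± 0.47, adjusted p 1.11e-04), while Gata6, the lineage's master factor, had 0.223, 0.308 and 0.526 CPM in EpiLC DKO and 0.363, 0.713 and 0.860 CPM in PGC-ESC DKO. Of the 14 tested genes of the longer endoderm list 5 rose and 3 fell, and its sum over 16 listed genes ran the other way, with 353.8 to 403 CPM in EpiLC DKO and 689.6 to 842 CPM in PGC-ESC DKO. Sparc, a matrix glycoprotein of many cell types, made most of it in the parents, with 90.9, 92.3 and 131 CPM in EpiLC DKO and 684, 751 and 553 CPM in PGC-ESC DKO (log2 fold change -2.67 ± 0.22, adjusted p 7.04e-06). For 5 trophoblast markers (Cdx2, Eomes, Gata3, Elf5 and Hand1) the sum was 7.62 to 8.89 CPM in EpiLC DKO and 17.0 to 27.8 CPM in PGC-ESC DKO, and Elf5 was at 0 in EpiLC DKO 1 and 2 and in PGC-ESC DKO 3. Of the 11 tested genes of the longer list 5 fell and 3 rose; Krt18, a keratin of simple epithelia, was among the rises (log2 fold change 2.64 ± 0.38, adjusted p 2.81e-04), and the 12 listed genes summed to 76.5 to 85.9 CPM in EpiLC DKO and 80.01 to 110.5 CPM in PGC-ESC DKO, which overlap. For 4 mesendoderm markers (T, Mixl1, Gsc and Mesp1) the sum was 5.85 to 8.57 CPM in EpiLC DKO and 10.0 to 15.5 CPM in PGC-ESC DKO. That difference rests on Gsc, with 27 counts in all in EpiLC DKO and 457 in PGC-ESC DKO. Of the 10 tested genes of the longer list 3 rose and 3 fell (median log2 fold change 0.56), and 1 rose without line 1, where the median was -0.09; Wnt3, a WNT ligand of the primitive streak, was the largest of the rises (log2 fold change 3.20 ± 0.41, adjusted p 1.34e-04). For comparison with the longer lists, 27.6% of all tested genes were higher and 24.9% lower. In EpiLC DKO each of the sums over 4 or 5 defining markers was far below that of the formative markers.

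The neuroectoderm markers differed: Sox1, Pax6 and Neurog2 summed to 42.5 to 83.9 CPM in EpiLC DKO and 4.52 to 7.34 CPM in PGC-ESC DKO. Most of it in EpiLC DKO was Sox1, the earliest neural Sox factor, with 77.8, 65.1 and 36.7 CPM in EpiLC DKO and 3.60, 3.72 and 4.70 CPM in PGC-ESC DKO (log2 fold change 3.86 ± 0.27, adjusted p 2.67e-06). Pax6, a factor of eye and forebrain, had 5.92, 5.55 and 5.32 CPM in EpiLC DKO and 1.42, 0.792 and 2.45 CPM in PGC-ESC DKO (log2 fold change 1.92 ± 0.40, adjusted p 0.00267), and the neural filament gene Nes rose (log2 fold change 2.61 ± 0.18, adjusted p 2.21e-06). The longer neuroectoderm list had 5 of 9 genes higher and 1 lower, which was Tubb3, a neuronal tubulin (log2 fold change -1.29 ± 0.17, adjusted p 1.60e-04). For 7 fibroblast or feeder markers the sum was 15.9 to 21.4 CPM in EpiLC DKO and 2.34 to 4.90 CPM in PGC-ESC DKO. Thy1, also found on other cell types, had 7.76, 8.39 and 8.37 CPM in EpiLC DKO and 0.726, 0.872 and 0.992 CPM in PGC-ESC DKO (log2 fold change 3.25 ± 0.28, adjusted p 9.57e-06), and Dcn, a matrix proteoglycan, had 1.73, 1.47 and 4.50 CPM in EpiLC DKO against 2 counts in all in the parents (ratio 64.3, 95% counting interval 17.6 to 535). Lum or Postn, or both, were at 0 in each EpiLC library, and both were at 0 in each parent. The part of such cells in other results was not tested.

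Transcription factor families moved in both directions, against 27.6% higher and 24.9% lower over all tested genes. Of 17 tested Sox genes 10 rose and 4 fell, Sox15 among the falls (log2 fold change -2.52 ± 0.22, adjusted p 1.17e-05). Of 35 forkhead genes 19 rose and 6 fell; Foxp1, a forkhead factor of pluripotent and neural cells, had 113, 110.0 and 133 CPM in EpiLC DKO and 9.56, 9.43 and 11.6 CPM in PGC-ESC DKO (log2 fold change 3.54 ± 0.15, adjusted p 2.50e-07), and Foxo1, a target of insulin signalling, rose (log2 fold change 1.74 ± 0.14, adjusted p 5.85e-06). Of 17 Krüppel-like genes 9 fell and 5 rose. Klf2 and Klf5, which can stand in for Klf4, had 14.1, 16.5 and 23.2 and 13.7, 14.5 and 11.8 CPM in EpiLC DKO, against 382, 481 and 413 and 183, 109 and 176 CPM in PGC-ESC DKO (log2 fold change -4.60 and -3.51). The naive members of the family thus fell together in every line.

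Among 29 tested Hox genes, which pattern the body axis, 10 rose and 9 fell, all at low levels. Over all tested genes 27.6% were higher and 24.9% lower. Hoxc13, from the posterior end of its cluster, had 1.62, 2.40 and 2.22 CPM in EpiLC DKO and 12.9, 18.5 and 16.7 CPM in PGC-ESC DKO (log2 fold change -2.95 ± 0.25, adjusted p 8.14e-06). Hoxb1, from the anterior end of its cluster, had 1.56, 1.27 and 0.936 CPM in EpiLC DKO and 3 counts in all in PGC-ESC DKO (ratio 25.7, 95% counting interval 8.56 to 126). Hoxb5 had 1.40, 1.27 and 0.409 CPM in EpiLC DKO and no counts in PGC-ESC DKO, at least 22.1-fold higher against a floor of 3 counts over the 3 libraries. The Hox counts were fragile: 6 rose without line 1 and 5 fell without line 2.

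Apoptosis genes, the setting of the knockout, shifted on both sides. Of 15 BCL-2 family genes 8 rose and 4 fell (median log2 fold change 0.63), against 27.6% higher and 24.9% lower over all tested genes. Bcl2l11, the BH3-only protein Bim, had 66.9, 65.6 and 55.7 CPM in EpiLC DKO and 14.9, 15.8 and 17.8 CPM in PGC-ESC DKO (log2 fold change 1.96 ± 0.16, adjusted p 5.77e-06). Bmf, another BH3-only protein, had 22.5, 23.3 and 16.9 CPM in EpiLC DKO and 5.01, 4.12 and 4.90 CPM in PGC-ESC DKO (log2 fold change 2.15 ± 0.21, adjusted p 2.31e-05). Bcl2l11 and Bmf were higher in every line. Of the other BH3-only genes listed that were not targeted, Bik and Hrk rose (log2 fold change 2.00 and 1.56) and Bad fell (log2 fold change -1.19). Bid did not pass (log2 fold change -0.39, adjusted p 0.0574). The guardian Bcl2 rose as well, with 5.53, 4.76 and 3.39 CPM in EpiLC DKO and 0.264, 0.555 and 0.728 CPM in PGC-ESC DKO (log2 fold change 3.24 ± 0.45, adjusted p 2.20e-04), and Bcl2l1, or Bcl-x, fell (log2 fold change -0.80 ± 0.13, adjusted p 7.23e-04). The effector Bak1 fell (log2 fold change -0.82 ± 0.15, adjusted p 0.0012) and the related Bok rose (log2 fold change 1.46 ± 0.19, adjusted p 1.71e-04). Bax fell too (log2 fold change -0.66, adjusted p 0.0145), and Mcl1 rose (log2 fold change 0.55, adjusted p 0.00767). Of 16 genes on the p53 list, Trp53 and 15 targets, 5 fell (Trp53 among them) and 1 rose, against 24.9% lower and 27.6% higher over all tested genes. Without line 3, 3 fell and 5 rose, and none rose without line 1 or line 2. Trp53 itself had 275, 260.0 and 318 CPM in EpiLC DKO and 662, 497 and 585 CPM in PGC-ESC DKO (log2 fold change -1.03 ± 0.15, adjusted p 2.82e-04), and Gdf15, a stress cytokine, fell (log2 fold change -1.85 ± 0.24, adjusted p 1.59e-04). Cdkn1a, the cell cycle inhibitor p21, fell by 0.83 on the log2 scale, a call lost without line 3 (adjusted p 0.0579).

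Sterol genes rose nearly throughout. Of 18 genes of cholesterol synthesis and uptake 16 rose and none fell (median log2 fold change 1.23), against 27.6% of all tested genes higher. Lss (chromosome 10, 76531588 to 76557138), which closes the sterol rings, had 258, 239 and 201 CPM in EpiLC DKO and 58.8, 46.0 and 53.5 CPM in PGC-ESC DKO (log2 fold change 2.14 ± 0.15, adjusted p 2.81e-06). Every EpiLC library was above every parent for Lss. Later steps followed, with log2 fold changes of 1.33 for Cyp51, 1.62 for Msmo1 and 1.24 for Dhcr7. Insig1, the sterol sensor that restrains the pathway, did not pass (log2 fold change 0.21 ± 0.13, adjusted p 0.224). EpiLC DKO 1 held the highest value for 13 of the 18 genes.

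Glycolysis genes moved in both directions. Of 22 genes 9 rose and 5 fell (median log2 fold change 0.16), against 27.6% higher and 24.9% lower over all tested genes, and 3 fell without line 3 or without the line block. Slc16a3 (chromosome 11, 120948480 to 120960868), the lactate exporter MCT4, had 331, 299 and 365 CPM in EpiLC DKO and 7.49, 11.1 and 6.95 CPM in PGC-ESC DKO (log2 fold change 5.31 ± 0.28, adjusted p 6.23e-07). Pdk1, which keeps pyruvate out of mitochondria, had 234, 236 and 194 CPM in EpiLC DKO and 26.3, 16.6 and 28.6 CPM in PGC-ESC DKO (log2 fold change 3.24 ± 0.33, adjusted p 2.66e-05). Hk1, a hexokinase, had 39.2, 41.9 and 32.6 CPM in EpiLC DKO and 228, 189.7 and 143 CPM in PGC-ESC DKO (log2 fold change -2.28 ± 0.14, adjusted p 1.28e-06). The exporter and Pdk1 were thus higher, and Hk1 lower, in all 3 lines. The other hexokinase listed, Hk2, fell slightly (log2 fold change -0.41, adjusted p 0.0427). Pfkp, a phosphofructokinase, fell (log2 fold change -2.54 ± 0.18, adjusted p 2.52e-06), Ldha, the lactate dehydrogenase of glycolytic tissue, rose (log2 fold change 1.58 ± 0.20, adjusted p 1.23e-04), Ldhb fell (log2 fold change -1.23 ± 0.30, adjusted p 0.0065), and the glucose transporter Slc2a1 rose (log2 fold change 1.47 ± 0.16, adjusted p 4.80e-05).

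Nuclear genes of oxidative phosphorylation were lower: 54 of 78 fell and 2 rose (median log2 fold change -0.65). The shares over all tested genes were 24.9% lower and 27.6% higher. Cox5a, a subunit of cytochrome oxidase, had 75.2, 79.8 and 82.4 CPM in EpiLC DKO and 220.0, 289.8 and 195 CPM in PGC-ESC DKO (log2 fold change -1.55 ± 0.18, adjusted p 6.46e-05). Uqcrb, of complex III, had 87.2, 90.8 and 98.3 CPM in EpiLC DKO and 198, 249 and 191 CPM in PGC-ESC DKO (log2 fold change -1.20 ± 0.15, adjusted p 9.22e-05). PGC-ESC DKO 2 was the highest library for both, and the states did not overlap. Of 84 cytosolic ribosomal protein genes 27 fell and none rose (median -0.58), a count that was 5, 2 and 20 without line 1, 2 and 3 and 57 in the fit of the 6 DKO libraries alone, 59 without the filter, 47 with DESeq2 and 66 without either Host line. The line medians were -0.40, -1.09 and -0.26 for ribosomal proteins and -0.55, -0.92 and -0.38 for oxidative phosphorylation in lines 1, 2 and 3, so line 2 differed from the others, and 31 oxidative phosphorylation genes fell without it. Many of these genes have near-identical pseudogenes, so single values are uncertain. Ribosomal protein transcripts summed to 71064 to 74906 CPM in EpiLC DKO, against 93601, 152899 and 89079 CPM in PGC-ESC DKO 1, 2 and 3. For these genes the departure of line 2 thus lay in its parent library. A wildtype parent, ESC Host 4, was as high, with 155425 CPM against 74581 CPM in ESC Host 3. PGC-ESC DKO 2 and ESC Host 4 also had the largest Rn45s shares of the 10 fitted libraries, 4.52 and 5.19% of counts. The reason was not tested.

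Gene length moved with these results. The median log2 fold change over all genes was -0.20 in quintile 1 of exon length, the shortest genes, and 0.23 in quintile 5, the longest. In line 2 alone the same medians of per-line differences were -0.43 and 0.41, against -0.09 and 0.13 in line 1 and -0.09 and 0.10 in line 3. Of the ribosomal protein genes 54 of 84, and of the oxidative phosphorylation genes 56 of 77 with a length, lay in the shortest class. The part of length in these results was not tested. The plot of within-line differences by list shows the same contrast among lines.

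**Figure D3:**
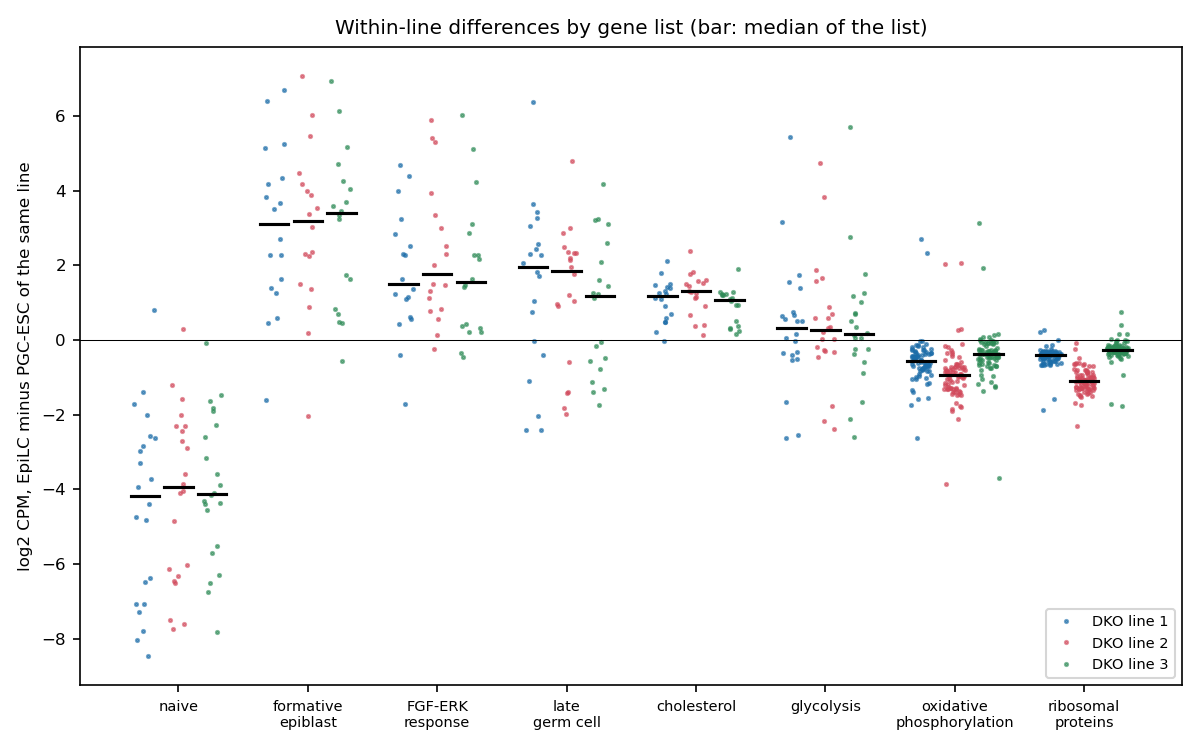
Difference of log2 CPM, EpiLC minus PGC-ESC of the same line (y axis), for each gene of 8 lists (x axis), with 1 colour per DKO line and a black bar at the list's median. The lines sit together for naive, formative and cholesterol genes, and line 2 sits lower than lines 1 and 3 for oxidative phosphorylation and ribosomal proteins.

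Fn1, or fibronectin, had 133, 143 and 192 CPM in EpiLC DKO and 1496, 767 and 1244 CPM in PGC-ESC DKO (log2 fold change -2.87 ± 0.27, adjusted p 1.67e-05). Vim, the mesenchymal filament gene, also fell (log2 fold change -2.25 ± 0.22, adjusted p 2.28e-05), as did Zeb1, a repressor of epithelial genes (log2 fold change -1.63 ± 0.17, adjusted p 3.04e-05), while Epcam, an epithelial adhesion molecule, had 497, 341 and 297 CPM in EpiLC DKO and 65.7, 76.4 and 95.9 CPM in PGC-ESC DKO (log2 fold change 2.24 ± 0.24, adjusted p 3.58e-05). Cdh1, or E-cadherin, did not pass (log2 fold change 0.26 ± 0.15, adjusted p 0.159), and Cdh3, or P-cadherin, rose (log2 fold change 2.18 ± 0.17, adjusted p 5.59e-06). On the list of adhesion and epithelial-mesenchymal genes 5 of 15 rose and 5 fell, near the shares of all tested genes (27.6% higher and 24.9% lower). The rises included Zeb2, related to Zeb1, and Twist1 (log2 fold change 2.28 and 1.84), and the falls Snai1 (log2 fold change -1.12), so mesenchymal regulators moved in both directions. Of 11 claudins, the sealing proteins of tight junctions, 7 rose and 2 fell (1 without line 2); Cldn7 had 64.2, 53.2 and 38.1 CPM in EpiLC DKO and 1.88, 1.82 and 1.32 CPM in PGC-ESC DKO (log2 fold change 4.95 ± 0.18, adjusted p 1.54e-07), and Cldn6 rose by 4.06. Esrp1, a splicing regulator of epithelia, rose in every line although the parents were unequal, with 103, 94.6 and 93.7 CPM in EpiLC DKO and 3.73, 0.317 and 1.72 CPM in PGC-ESC DKO (log2 fold change 5.69 ± 0.42, adjusted p 3.63e-06). Of 36 collagens 18 rose and 3 fell, and 1 fell without line 2 or line 3. Col4a1 and Col4a2, the basement membrane pair, rose by 2.47 and 2.41, and Col18a1 had 556, 538 and 553 CPM in EpiLC DKO and 194, 141 and 202 CPM in PGC-ESC DKO (log2 fold change 1.64 ± 0.18, adjusted p 4.58e-05). Of 10 laminins 5 fell and 3 rose, and 1 rose without line 2: the chain Lama1 fell (log2 fold change -2.20 ± 0.15, adjusted p 2.47e-06) and its partner Lamb1 rose (log2 fold change 1.91 ± 0.17, adjusted p 1.11e-05).

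Lin28b, the paralogue of Lin28a, had 83.4, 71.5 and 75.1 CPM in EpiLC DKO and 8.05, 4.99 and 7.61 CPM in PGC-ESC DKO (log2 fold change 3.49 ± 0.22, adjusted p 1.34e-06). On its list of 7 genes 3 rose and 2 fell, against 27.6% higher and 24.9% lower over all tested genes. Without line 1 or line 2, 1 fell. Of 11 Polycomb PRC2 genes, which deposit the repressive mark on histones, 5 fell and 1 rose, set against the same shares. The core subunits Eed and Suz12 and the accessory subunit Mtf2 fell by 1.22, 1.03 and 1.28 on the log2 scale, and Phf19, an accessory subunit, rose (log2 fold change 2.30 ± 0.30, adjusted p 1.59e-04). Among 17 cell cycle genes 5 rose and 5 fell, shares near the 27.6% and 24.9% of all tested genes, and both counts were 3 without line 1, with 3 rises without line 3. The D cyclins moved in both directions: Ccnd2 had 15.4, 14.96 and 20.6 CPM in EpiLC DKO and 2.21, 1.82 and 5.69 CPM in PGC-ESC DKO (log2 fold change 2.52 ± 0.28, adjusted p 5.35e-05), and Ccnd3 had 95.6, 98.0 and 66.6 CPM in EpiLC DKO and 277, 273 and 246 CPM in PGC-ESC DKO (log2 fold change -1.63 ± 0.14, adjusted p 1.10e-05). Ccnd3 stayed above Ccnd2 in every EpiLC library, and Ccnd1 rose (log2 fold change 0.44, adjusted p 0.0141).

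**Figure D4:**
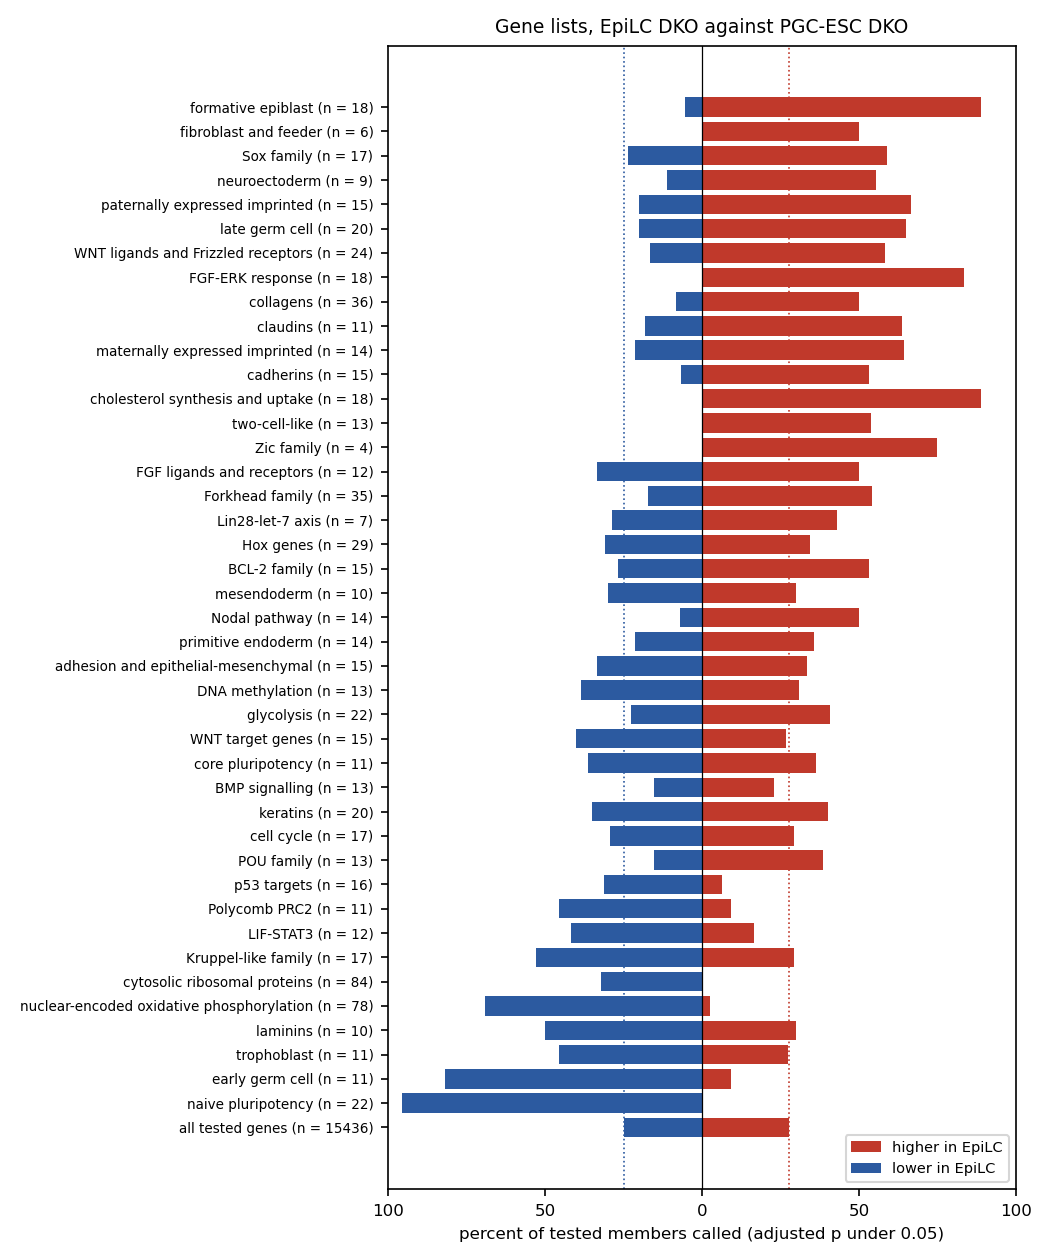
Percent of the tested members of each gene list (y axis, with the number tested) called higher (red, right) or lower (blue, left) in EpiLC DKO at an adjusted p under 0.05, in order of the median log2 fold change. Dotted lines are the shares over all tested genes, 27.6% higher and 24.9% lower; formative and cholesterol lists lie furthest past the red line and naive and early germ cell lists furthest past the blue one.

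The extremes of the response came close to switches. Under 0.5 CPM in every parent and at or over 5 CPM in every EpiLC library were 61 genes, and the reverse held for 31. Car4 (chromosome 11, 84957786 to 84966044), a membrane-bound carbonic anhydrase, had 62.6, 63.5 and 56.0 CPM in EpiLC DKO and not one count in PGC-ESC DKO. Against a floor of 3 counts over the 3 parents it was at least 1192-fold higher. Tmem54, a membrane protein, had 32.1, 25.5 and 27.2 CPM in EpiLC DKO and 1 count in all in PGC-ESC DKO, a ratio of 1667 with a 95% counting interval of 299 to 65883. Both were uniform over the EpiLC lines. Enpp2, the secreted enzyme autotaxin, was not: it had 8.29, 9.76 and 51.4 CPM in EpiLC DKO 1, 2 and 3, against 1 count in all in PGC-ESC DKO, a ratio of 1033 (185 to 40814), with EpiLC DKO 3 far above the other EpiLC libraries.

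Further genes that were near silent in the parents and rose were Insm1, a neuroendocrine zinc finger factor (log2 fold change 7.44 ± 0.28, adjusted p 1.61e-07), Epha1, an ephrin receptor (log2 fold change 7.36 ± 0.23, adjusted p 6.49e-08), Fndc3c1 (log2 fold change 8.76 ± 0.32, adjusted p 1.54e-07), Pcdh1, a protocadherin (log2 fold change 7.71 ± 0.55, adjusted p 2.96e-06), Syt13, a synaptotagmin (log2 fold change 7.14 ± 0.28, adjusted p 1.83e-07), and Mmp25, a matrix metalloproteinase (log2 fold change 6.38 ± 0.21, adjusted p 8.15e-08). Syt13 had 63.5, 75.1 and 26.6 CPM in EpiLC DKO 1, 2 and 3, lowest in line 3, against 0.396, 0.792 and 0.0662 CPM in PGC-ESC DKO. Trpm1 (chromosome 7, 64153835 to 64269775), a cation channel of retina and melanocytes, had 0, 0.0685 and 0.117 CPM in EpiLC DKO and 64.2, 104 and 114 CPM in PGC-ESC DKO (log2 fold change -10.69 ± 0.34, adjusted p 1.61e-07). Aqp3, a water and glycerol channel, had 0.781, 0.890 and 1.40 CPM in EpiLC DKO and 79.4, 110.3 and 165 CPM in PGC-ESC DKO (log2 fold change -6.82 ± 0.18, adjusted p 4.12e-08). Channels, a ligand and naive factors thus stood side by side among the deepest falls. Nr5a2, a nuclear receptor of the naive circuit, had 0.726, 0.719 and 2.05 CPM in EpiLC DKO and 108, 56.3 and 112 CPM in PGC-ESC DKO (log2 fold change -6.42 ± 0.32, adjusted p 4.83e-07), and Khdc3, an oocyte and early embryo protein, fell by 6.57 on the log2 scale.

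The 3 lines responded alike in outline. Across the tested genes the per-line log2 differences correlated at r = 0.917 for lines 1 and 2, 0.881 for lines 1 and 3 and 0.865 for lines 2 and 3, as a description over genes, which are not independent replicates. Genes that differed from the parent by more than 1 on the log2 scale numbered 3569, 3750 and 2905 upward and 1979, 2477 and 2238 downward in lines 1, 2 and 3. Line 3 had the fewest rises. Among the called falls, EpiLC DKO 3 was the highest of the EpiLC libraries for 47.2% of genes, EpiLC DKO 2 for 34.1% and EpiLC DKO 1 for 18.7%; over all tested genes the shares were 37.6, 32.4 and 30.0%. The genes with the widest range of response over lines included Thbs1, a matrix glycoprotein, with 92.5, 89.2 and 56.7 CPM in EpiLC DKO and 0.462, 1.11 and 2.18 CPM in PGC-ESC DKO (per-line log2 differences 7.41, 6.23 and 4.65). For Mt3, a metallothionein, the values were 19.1, 20.3 and 33.6 CPM in EpiLC DKO and 2.28, 1.66 and 0.198 CPM in PGC-ESC DKO (3.03, 3.54 and 6.91). In both the parents differed more, in proportion, than the EpiLC libraries did. Line 3 differs from lines 1 and 2 in its Y-linked reads as well, and the part of that in its response was not tested.

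The response of the DKO lines was close to that of the wildtype Host lines. In Host lines 3 and 4, 24.1% of tested genes rose and 21% fell, 6969 in all. The log2 fold changes correlated across genes at Pearson's r = 0.924 and Spearman's rho = 0.926, with no library shared between the responses and genes again not independent. Called in the same direction in both were 6260 genes, 77.4% of the DKO calls and 89.8% of the Host calls, and 3 genes were called in opposite directions. The naive list had 21 of 22 genes lower in DKO and 21 in Host lines (median log2 fold change -4.14 and -4.62), and the formative list had 16 and 14 of 18 higher (median 3.21 and 2.74).

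The test of the difference between the responses called 0 genes by edgeR, with 637 at an unadjusted p under 0.05 and a smallest adjusted p of 0.173, and DESeq2 called 15 (9 with the DKO response higher and 6 lower). DKO origin in germ cells, the knockout and the EGFP reporter differ together from the Host lines and cannot be told apart. Pmaip1 had the response 0.63 in DKO and 3.76 in Host lines, with 4.52, 5.20 and 3.63 CPM in EpiLC DKO and 289 and 309 CPM in EpiLC Host 3 and 4, a difference of -3.13 (adjusted p 0.173). The gene that encodes Noxa was thus high in both Host EpiLC libraries and in none of the DKO ones. Ccbe1, a secreted factor of lymphatic growth, had 1.31, 1.16 and 0.409 CPM in EpiLC DKO and 10.8, 8.64 and 8.87 CPM in PGC-ESC DKO, against 1.21 and 1.71 CPM in EpiLC Host 3 and 4 and 0.606 and 0.341 CPM in ESC Host 3 and 4, a difference of -4.86 (adjusted p 0.173). Its direction was opposite in the lines, and DESeq2 called both genes (adjusted p 2.72e-08 for each).

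Of the 15 genes that DESeq2 called, AA467197 had the widest difference (6.304 by DESeq2, adjusted p 0.0071), and 5 more are given here, chosen after their values were seen. Slc16a3 rose by 5.31 in DKO and 3.06 in Host lines (difference 2.25, edgeR adjusted p 0.422), and Ldha by 1.58 against 0.14 (difference 1.44, adjusted p 0.834). Dnmt3a rose by 3.86 against 2.26 (difference 1.60, adjusted p 0.779), and Bmf, a BH3-only gene, by 2.15 against 0.45 (difference 1.70, adjusted p 0.487). Cdh6, a cadherin of kidney and neural crest, had -2.23 against 1.39 (difference -3.63, adjusted p 0.472). In the main fit edgeR called the difference for none of these genes. Without the filter on low counts edgeR called it for all of them except Ldha.

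**Figure D5:**
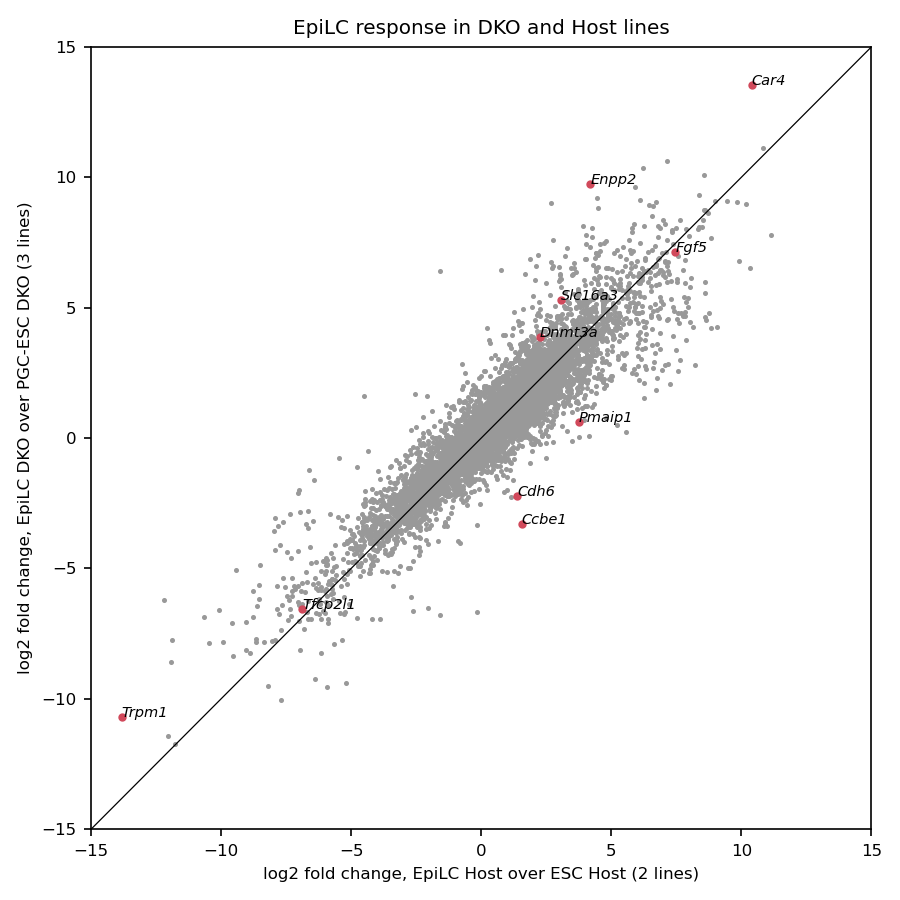
Each point is 1 tested gene, with the log2 fold change of EpiLC Host over ESC Host (2 lines) on the x axis and of EpiLC DKO over PGC-ESC DKO (3 lines) on the y axis; the line marks equal responses. Most genes lie along it, and Pmaip1, Cdh6 and Ccbe1 lie below it.

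Some rows of the table are microRNA genes, read here in poly(A) RNA and so as precursors or host transcripts, not as mature microRNAs. Of 32 tested rows named Mir plus a number 7 rose and 3 fell, no more than the shares of all tested genes (27.6% higher and 24.9% lower). Mature sequences from RefSeq on GRCm38.p6 are given for 4 rows, chosen after their values were seen because 3 share a seed (bases 2 to 8, in capitals).
miR-363-3p: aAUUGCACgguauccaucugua
miR-92a-3p: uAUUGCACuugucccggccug
miR-25-3p: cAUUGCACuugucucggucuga
miR-196a-5p: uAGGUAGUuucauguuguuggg
The seed of the first 3 belongs to the family that includes miR-92a, encoded in the cluster whose host transcript is Mir17hg. Mir363 had 1.23, 1.10 and 0.643 CPM in EpiLC DKO and 0.0330, 0.238 and 0.132 CPM in PGC-ESC DKO (log2 fold change 3.12 ± 0.82, adjusted p 0.00946), and Mir17hg had 34.3, 30.4 and 29.6 CPM in EpiLC DKO and 13.2, 23.0 and 17.7 CPM in PGC-ESC DKO (log2 fold change 0.85 ± 0.23, adjusted p 0.0116). Both calls were lost without line 1 (adjusted p 0.0875 and 0.114). Mir25, inside an intron of Mcm7, had 1.03, 0.787 and 1.11 CPM in EpiLC DKO and 0.956, 1.11 and 1.19 CPM in PGC-ESC DKO and did not pass (log2 fold change -0.14 ± 0.39, adjusted p 0.785). Mir196a-1, in a Hox cluster, fell, with 0.307, 0.171 and 0.234 CPM in EpiLC DKO and 2.28, 3.72 and 2.51 CPM in PGC-ESC DKO (log2 fold change -3.50 ± 0.45, adjusted p 1.23e-04). Rows of this family therefore did not share one result.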

How the data were processed

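Of 20 mouse poly(A) RNA libraries, 10 were fitted together: EpiLC DKO 1 to 3, PGC-ESC DKO 1 to 3, EpiLC Host 3 and 4, and ESC Host 3 and 4. The authors deposited raw counts of reads per gene, whole numbers with no normalization; per the submitters' processing notes reads were aligned with STAR 2.7.7a to mm10. The sources used here do not give the counting tool, its annotation or its strand setting, so reads of overlapping and antisense genes cannot be told apart. No row lacked a gene name, and 0 columns belonged to no sample.

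From the counts, edgeR 4.0.16 in R 4.3.3 was run with filterByExpr, TMM scaling and the quasi-likelihood F test, with 1 term for each of the 5 cell lines and an EpiLC effect for DKO and for Host lines (3 residual degrees of freedom). All tests were two-sided, with Benjamini-Hochberg adjustment over 15436 genes and calls at an adjusted p under 0.05. Values after ± are standard errors of the log2 fold change unless named SD. Per-line differences are of log2 CPM with a prior count of 2. Values of a group are listed in the order of its line numbers. Counting intervals are exact at the 95% level and, like the floor of 3 counts, cover counting error only. The deposited design text says the EpiLCs were derived from these lines, which is where the pairing comes from; deviations from group means of same-numbered libraries correlated at r = 0.12, 0.13 and 0.11, against -0.08 to -0.03 for the others. The chi-square per gene between replicates was 5.80 to 58.5, so no pair was one library deposited again. The steps were tested on simulated data.

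Named genes were the targeted genes and EGFP, up to 4 called genes per list, taken by smallest adjusted p, the 15 largest rises and 15 largest falls at a mean of 20 CPM or more, and the 8 with the widest range over lines, plus genes added after their values were seen; some of these are not reported here. The comparison, lists and rule were chosen with earlier results of these data known. Alternatives were a fit without the line block, the 6 DKO libraries alone, RLE scaling, no filter, DESeq2 1.42.0, totals without Rn45s and EGFP, a threshold of 0.01, and each line left out in turn. Gene positions and lengths came from GENCODE M21 (15109 of 15436 tested genes matched by name) and promoter and microRNA sequences from RefSeq (12069 of 15436 tested genes had a promoter entry). The other 10 libraries enter only the fit without the block.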

Additional observations from a re-analysis of the deposited data

How the results depend on the processing

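The count of genes called between EpiLC DKO and PGC-ESC DKO, 8092, ranged from 5696 (threshold 0.01) to 8217 (no filter) over the alternatives that kept all lines, and from 5817 to 8565 with a line left out. Without the replicate block it was 7792, of which 7280 were shared with the main count. The blocked test of the difference between DKO and Host responses called 0 genes; it called 1 without the block (Ccbe1, -4.37), 15 without the filter and 15 with DESeq2, and 0 to 3 with a line left out (1 without DKO line 1, 3 without Host line 4). Where a Host line was left out, the remaining line was assumed to vary like the DKO lines.

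Of 227 named genes called in the DKO lines, 218 kept their call and direction under all 12 alternatives. Most were picked for a small adjusted p or a large change in these data, so this share does not carry over to all called genes. Genes with the sign turned were not called in the main test: Mir25 was 0.023 without DKO line 2 and -0.30 without DKO line 1, the range with a line left out, and of the differences between responses Bbc3 was 0.06, 0.20 and 0.31 without DKO line 2, DKO line 3 and Host line 3 (range -0.38 to 0.31 with a line left out) and EGFP 0.022 without Host line 3 (range -9.51 to 0.022). EGFP took 5.5e-05% of counts or less in each Host library, so its difference rests on very few Host reads. The cause of the turned signs was not tested. Depth limits the low genes: most Hox and microRNA rows rest on few reads, and 3 residual degrees of freedom limit the test of the difference.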
